A study of Mus musculus with 88 samples.

Results

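Histones are the proteins around which DNA is wound, and their genes were followed here in whole blood of lupus-prone mice. The 24 histone genes of this account, of 17097 genes that the array measured, are those whose symbol in the array's probe annotation begins as a core or linker histone symbol does (Hist1h to Hist4h, H1f, H2ac, H2af, H2az, H2bc, H2bf, H3c, H3f, H4c or H4f). No measured value entered this choice, except that a gene with more than 1 probe set is represented by the one with the highest mean over all arrays. SNF1 mice, the F1 offspring of SWR and NZB parents, develop lupus nephritis as they age, and pristane is a hydrocarbon oil that accelerates such disease. Each of 88 arrays (Affymetrix HT MG-430 PM) held the blood RNA of 1 mouse, with 8 mice in each of 11 groups. SNF1 mice treated with pristane and untreated SNF1 mice were sampled at weeks 2, 4, 8, 12 and 14, counted by the study from the injection. These weeks are therefore not ages. By the study's methods the SNF1 mice were female, and the untreated mice were matched to the treated ones in age. A further group of untreated SNF1 mice of week 36, which is an age, had spontaneous disease, and by the study's methods was chosen for its proteinuria. That group has no undiseased counterpart of its age, so that age and disease cannot be told apart in it, and no label names a batch, plate or scan. None of the groups carries a transgene or a deletion.

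A nucleosome holds 2 copies each of the core histones H2A, H2B, H3 and H4, and a linker histone of the H1 family binds where the DNA enters and leaves it. Most core histone genes lie in clusters and are replication-dependent: they are transcribed while DNA is copied, and their mRNAs usually end in a stem-loop in place of a poly(A) tail. Variant histones such as H3.3 and H2A.Z are made from ordinary polyadenylated mRNAs at any time in the cell cycle, and a few further variants belong to germ cells. In circulating blood most nucleated cells are not dividing, and mouse red cells and platelets have no nucleus.

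Of the 24 genes, 15 are replication-dependent, 5 are somatic variants (H1f10, H2az1, H2az2 and the H3.3 genes H3f3a and H3f3b) and 4 are germ-cell variants (H1f6, H1f7, H1f8 and H2bfm). The replication-dependent genes comprise 2 of the H1 family, 4 of H2B, 6 of H3 and 3 of H4, and 12 of the 24 genes lie on chromosome 13 and 5 on chromosome 3. No replication-dependent H2A gene had a probe set of its own, and the near-identical copies H2ac18 and H2ac19 share a pair of probe sets. Near-identical coding sequences are common among these genes, so a probe set can take up signal from a related copy. This applies above all to H3c1, the single member whose probe set carries the _s_at suffix of sets that match transcripts of several genes. Signals are the deposited log2 values of the robust multi-array average (RMA), whose median over all probe sets and arrays was 3.89. The means of 4 members (H1f4, H3c15, H4c11 and H2bfm) were below that median, and their differences rest on dim signals. Levels of different genes are not compared, since each probe set has its own brightness.

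The start regions of the histone genes whose change carries the account are shown first. They are the 150 bases before the annotated start, from RefSeq on mouse build GRCm38.p6, written from 5′ to 3′ on the gene's strand. Capitals mark every match to 1 of 3 short motifs on either strand, namely the CCAAT box, the TATA motif (spelled TATAA) and the octamer ATTTGCAT, which is known from H2B promoters. Matches may overlap, as they do near the 5′ end of the H4c9 window.
H4c9 (chr13:22041363-22041512, minus strand): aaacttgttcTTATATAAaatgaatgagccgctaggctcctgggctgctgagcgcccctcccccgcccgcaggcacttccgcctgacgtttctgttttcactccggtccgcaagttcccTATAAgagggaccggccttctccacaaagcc
H4c8 (chr13:23530894-23531043, plus strand): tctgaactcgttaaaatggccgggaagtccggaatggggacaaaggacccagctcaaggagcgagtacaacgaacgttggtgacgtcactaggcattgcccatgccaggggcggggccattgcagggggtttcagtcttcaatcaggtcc
H2bc22 (chr13:21787338-21787487, plus strand): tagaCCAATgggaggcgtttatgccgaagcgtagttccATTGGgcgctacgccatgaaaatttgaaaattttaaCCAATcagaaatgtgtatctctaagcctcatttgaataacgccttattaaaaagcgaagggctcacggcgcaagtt
H2bc18 (chr3:96269550-96269699, plus strand): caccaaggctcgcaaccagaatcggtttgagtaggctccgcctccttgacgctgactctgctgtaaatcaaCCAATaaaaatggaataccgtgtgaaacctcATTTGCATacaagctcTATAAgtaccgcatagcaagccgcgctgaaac
H1f2 (chr13:23738657-23738806, plus strand): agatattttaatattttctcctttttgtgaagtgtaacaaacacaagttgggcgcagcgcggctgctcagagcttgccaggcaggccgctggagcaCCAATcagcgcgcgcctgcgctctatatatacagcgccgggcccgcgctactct
H3f3b (chr11:116024505-116024654, minus strand): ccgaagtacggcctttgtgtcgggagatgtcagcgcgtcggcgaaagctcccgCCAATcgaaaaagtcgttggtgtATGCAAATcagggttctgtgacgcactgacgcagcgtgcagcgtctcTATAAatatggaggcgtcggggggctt
Among these windows H2bc18 held all 3 motifs, and H4c8 held none. The H3f3b window, which belongs to a transcript that starts inside the annotated gene, also held all 3, and the H2bc22 window reaches 5 bases past the annotated start of its gene. Of the 24 members, 20 had such a window, and 13 of these held the CCAAT box, 7 the TATA motif and 2 the octamer. Over all 32851 windows of the same length the shares were 24.5% for the CCAAT box, 14.2% for the TATA motif and 0.998% for the octamer. A match describes letters, not a bound factor. H2bc4 and H3c1, which enter the results below, had no window.

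The main comparison asked which histone genes differed between pristane-treated and untreated mice at week 14. A gene is called risen or fallen where limma's moderated test, adjusted over all 45037 probe sets, gave a p under 0.05. Replication-dependent genes from all 4 measured families rose in pristane-treated blood, led by the H4 genes H4c9 and H4c8 and the H3 gene H3c1, while H3f3b, a gene of the replacement histone H3.3, and the H2B gene H2bc21 were lower. In all, 9 of 24 histone genes rose and 2 fell, or 45.8%, against 22.4% of all genes, of which 12.7% rose and 9.72% fell. The median difference was 0.41 on the log2 scale for the histone genes and 0.12 for all genes. Of the histone genes 20 of 24 lay above 0, against 63.5% of all genes. With the further demand of over 2-fold, 3 remained, against 1.87% of all genes higher by that measure. Platelet marker genes rose at the same week. None of these 11 calls held once the platelet signal of each array was taken into account, as described further on. In that fit the share of all genes passing also fell, from 22.4% to 4.16%, and the differences of some of the 11 changed little.

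H4c9, which encodes the core histone H4, had the largest difference. Its log2 signal was 8.41, 9.30 and 9.77 (lowest, median and highest of 8 mice) after pristane and 7.60, 8.05 and 8.55 in untreated mice of week 14. In pristane-treated mice 7 of 8 arrays lay above every untreated array, and the single overlapping one was replicate 2. The means were 9.29 ± 0.41 and 8.02 ± 0.31 (SD, n = 8 each), a 2.40-fold difference (95% confidence interval 1.87 to 3.10, limma adjusted p = 1.76e-07).

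The other H4 gene that rose, H4c8, had signals of 5.60, 6.60 and 7.51 after pristane and 5.24, 5.69 and 6.13 in untreated mice. Again 7 of 8 pristane arrays were above all untreated arrays. H4c8 was 2.08-fold higher (1.54 to 2.81, limma adjusted p = 0.000187). The dim H4c11 differed by 0.10 on the log2 scale (-0.16 to 0.36, limma adjusted p = 0.609).

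H3c1, a replication-dependent H3 gene, had signals of 7.14, 8.28 and 9.05 after pristane and 6.51, 7.02 and 7.75 in untreated mice. Here 6 of 8 pristane arrays were above all untreated arrays, and the H3c1 difference was 2.24-fold (1.58 to 3.17, limma adjusted p = 0.000355). A second, dimmer H3c1 probe set, with a mean of 2.86, differed by -0.11 on the log2 scale (adjusted p = 0.764), so the rise was seen by the set that may also match other H3 genes. None of the other 5 H3 genes of this class passed the test. Their differences ran from 0.11 in H3c15 to 0.55 in H3c11, all above 0.

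Among the H2B genes, H2bc22 had signals of 10.15, 11.01 and 11.59 after pristane and 9.58, 9.77 and 10.73 in untreated mice, with 5 of 8 arrays above all untreated ones. It was 1.94-fold higher (1.51 to 2.49, limma adjusted p = 4.84e-05), and its second probe set rose as well, by 0.63 on the log2 scale (adjusted p = 0.000922). H2bc18 was 1.74-fold higher (1.36 to 2.23, limma adjusted p = 0.000531) and H2bc4 1.65-fold higher (1.33 to 2.05, limma adjusted p = 0.000426), with 6 and 5 of 8 arrays above all untreated ones. The H2A probe sets shared by H2ac18 and H2ac19 rose by 0.68 (adjusted p = 0.00757) and 0.78 (adjusted p = 0.000128).

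H2bc21 went the other way. Its signals were 2.86, 4.42 and 4.97 after pristane and 4.07, 4.81 and 4.96 in untreated mice, and the groups overlapped, with 3 of 8 pristane arrays below every untreated array. H2bc21 fell by 0.67 on the log2 scale (1.60-fold lower, 1.14 to 2.23, limma adjusted p = 0.0349). This call was lost in 7 of 16 fits that left out 1 array, with the difference between -0.81 and -0.50. It was also lost with quantile normalization (adjusted p = 0.068), with untreated mice of all weeks as control (adjusted p = 0.0737), and with the array interquartile range (-0.32, adjusted p = 0.374) or the erythroid score (-0.38, adjusted p = 0.365) in the model. At week 12 H2bc21 was the single histone gene that passed the test, where it fell by 0.80 (adjusted p = 0.0488), a call lost in 11 of 16 such fits.

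The linker histone gene H1f2 had signals of 10.46, 11.31 and 11.65 after pristane and 10.29, 10.48 and 11.03 in untreated mice, with 6 of 8 arrays above all untreated ones. H1f2 was 1.56-fold higher (1.31 to 1.86, limma adjusted p = 8.75e-05), and its second probe set rose by 0.82 on the log2 scale (adjusted p = 4.67e-06). H1f4, the other H1 gene of the clusters, is dim and differed by 0.43 (adjusted p = 0.0991).

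Among the somatic variants 1 of 5 passed. H3f3b had signals of 8.78, 9.80 and 10.33 after pristane and 10.10, 10.33 and 10.59 in untreated mice. In pristane-treated mice 6 of 8 arrays were below every untreated array, and the spread was wider than in untreated mice (SD 0.52 and 0.17). H3f3b was 1.62-fold lower (1.32 to 1.97, limma adjusted p = 0.00022), but its second probe set differed by -0.12 on the log2 scale (adjusted p = 0.612). H3f3a, which encodes the same H3.3 protein, differed by -0.12 (adjusted p = 0.66), and its second probe set by 0.41 (adjusted p = 0.0568). The H2A.Z genes H2az1 (0.23, adjusted p = 0.238) and H2az2 (-0.02, adjusted p = 0.958) and the linker variant H1f10 (0.31, adjusted p = 0.152) did not pass. The medians were 0.55 for the replication-dependent genes (7 risen and 1 fallen of 15) and -0.02 for the somatic variants (0 risen and 1 fallen of 5), beside 22.4% of all genes passing. The share of the somatic variants is near that of all genes, and the difference between the classes was not tested.

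Of the germ-cell variants, the spermatid linker histone gene H1f7 (0.57, limma adjusted p = 0.00894) and the oocyte linker histone gene H1f8 (0.41, limma adjusted p = 0.0236) rose at week 14. The second probe set of H1f7 differed by 0.01 (adjusted p = 0.976), and the H1f8 call was lost without pristane replicate 4 (adjusted p = 0.0531). H1f6 (0.10) and the dim H2bfm (0.28) did not pass. No histone gene separated the groups without overlap at week 14, where 0.883% of all genes did so in the higher and 1.27% in the lower direction.

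**Figure D1:**
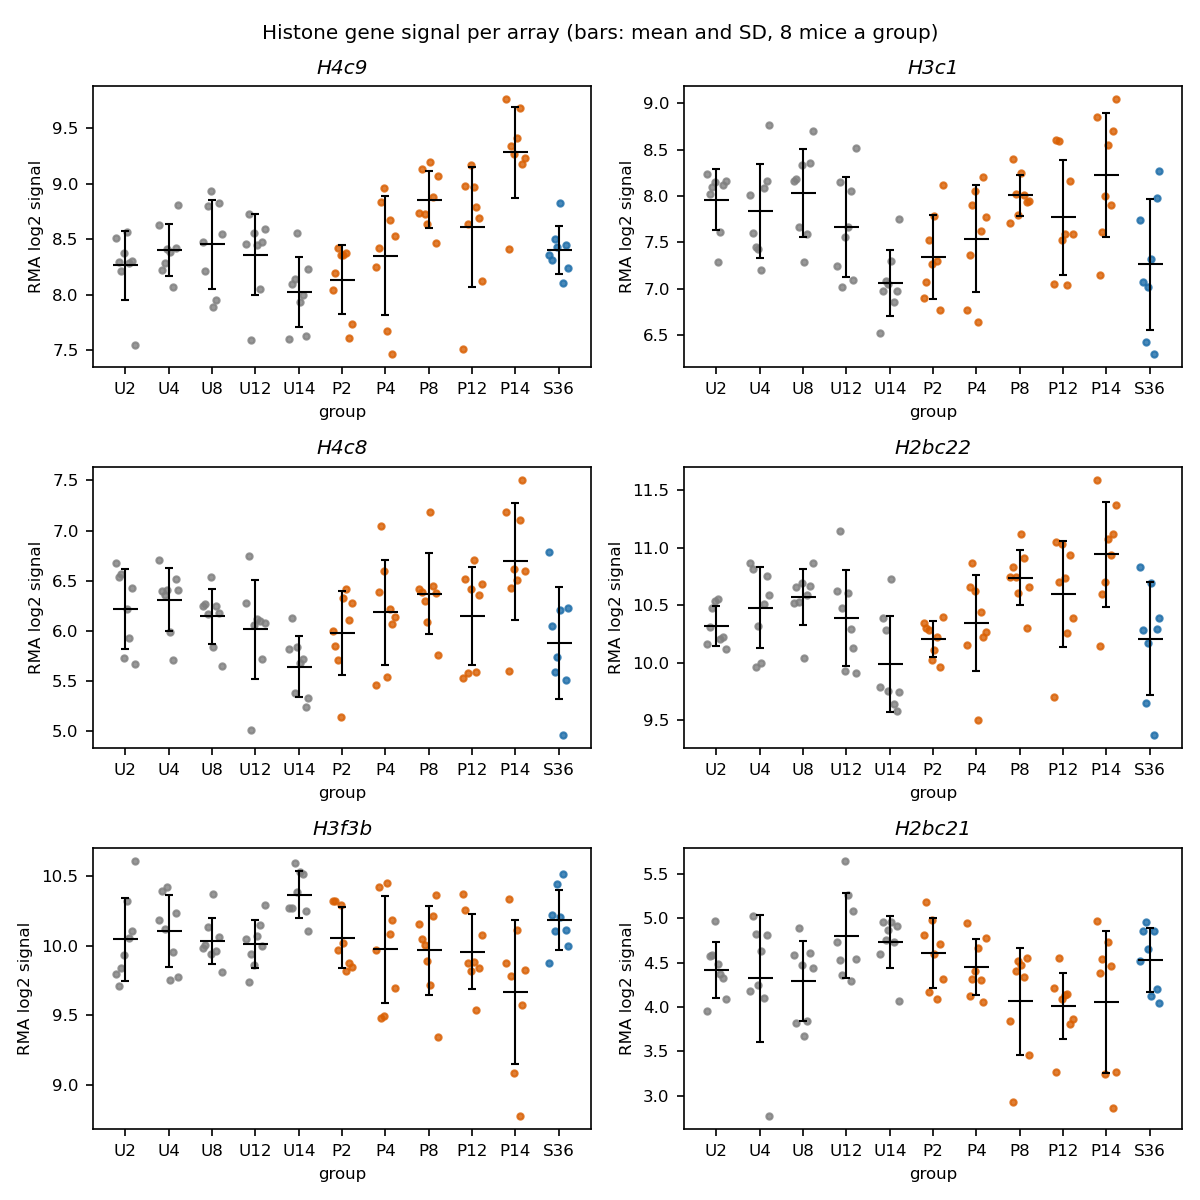
RMA log2 signal (y axis) of 6 histone genes on each of the 88 arrays, by group on the x axis (U untreated, P pristane, S spontaneous disease, number = week). Each point is 1 array, and the bars give mean and SD of 8 mice. H4c9, H3c1, H4c8 and H2bc22 have their highest mean in P14 and H3f3b its lowest, and the means of these 4 genes are lowest in U14, where that of H3f3b is highest.

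At the earlier weeks few differences stood out. None of the 24 histone genes passed for pristane at week 2, 4 or 8, against 3.58%, 2.98% and 2.63% of all genes, and 1 passed at week 12, against 3.77%. At an unadjusted p under 0.05 the counts in limma were 2 at week 2, 0 at week 4, 2 at week 8 and 2 at week 12, where 13.3% to 17.1% of all genes had such a p. H4c9 differed by -0.13 (-0.49 to 0.24) at week 2, by -0.05 (-0.42 to 0.31) at week 4, by 0.40 (0.04 to 0.77) at week 8 and by 0.25 (-0.12 to 0.61) at week 12 on the log2 scale, none with an adjusted p below 0.328. H3c1 lay below 0 at weeks 2, 4 and 8 and had its lowest value at week 2 (-0.62, adjusted p = 0.178). Between untreated mice of weeks 2 and 12, 0 histone genes passed, against 0.205% of all genes, and limma gave 0 at an unadjusted p under 0.05. The chosen H3c14 probe set had similar differences at every week, from 0.44 at week 12 to 0.54 at week 14, and passed at none. A second H3c14 probe set lay below 0 at week 2 (-0.13, limma adjusted p = 0.837) and week 4 (-0.45, adjusted p = 0.446). The direction for this gene thus depended on the probe set. The intervals of these genes at weeks 2 to 12 admit changes of up to about a 2-fold size for H3c14, so a p above the threshold does not show that they were alike.

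**Figure D2:**
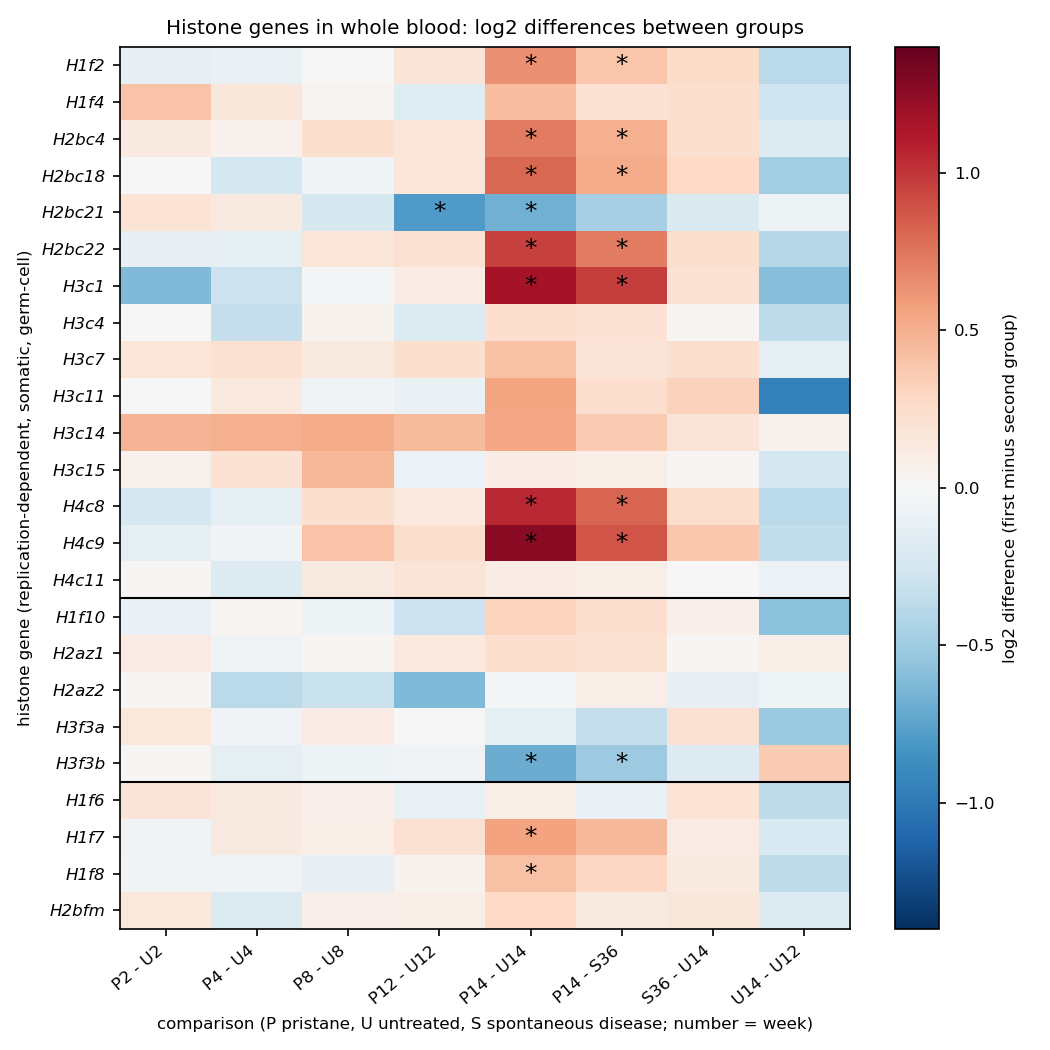
Heat map of the 24 histone genes (y axis, with lines between replication-dependent, somatic and germ-cell genes) over 8 comparisons (x axis). Colour gives the log2 difference, first minus second group, and a star an adjusted p under 0.05. Of the 5 weeks of pristane against untreated mice, week 14 holds 11 stars and week 12 holds 1.

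Whether the pristane difference itself changed with time was tested as a difference of differences. Between weeks 2 and 14 it rose in 6 histone genes and fell in 1, against 6.87% of all genes passing. The 6 were H3c1, by 1.78 on the log2 scale (limma adjusted p = 0.000808), H4c9 by 1.39 (adjusted p = 0.000333), H4c8 by 1.29, H2bc22 by 1.07, H2bc18 by 0.80 and H1f2 by 0.76, and H3f3b fell by 0.71 (adjusted p = 0.0256). The H3c1 value comes from the set that may also match other H3 genes. The second, dimmer H3c1 set differed by 0.001 at week 2 and did not pass at week 14. When 1 array was left out, H2bc18 lost its call in 15 of 32 fits (adjusted p up to 0.0786) and H3f3b in 2 (up to 0.0626). Between weeks 12 and 14 only H4c9 passed, by 1.02 (limma adjusted p = 0.0193), against 2.15% of all genes. That count ran from 0 to 6 when 1 array was left out: it was 6 without pristane week 14 replicate 2, 2 without pristane week 14 replicate 5, without pristane week 12 replicate 6 or without untreated week 12 replicate 3, and 0 without pristane week 12 replicate 1.

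Untreated mice of week 14 had low histone signals among the untreated groups. The mean of 14 of 24 histone genes was lowest, among all 11 groups, in untreated mice of week 14, and that of 9 was highest in pristane-treated mice of week 14. The same counts were not made over all genes, so they are no result about histone genes alone. In untreated mice 43.5% of all genes were higher at week 14 than at week 12. Compared with untreated mice of week 12, untreated mice of week 14 were lower in 21 of 24 histone genes, with a median of -0.31 against -0.04 for all genes. None passed, against 0.0702% of all genes, and 10 had an unadjusted p under 0.05 in limma, against 17% of all genes. With array weights 10 passed, 1 higher and 9 lower, against 15.4% of all genes. The largest such differences were in H3c11 (-0.95, adjusted p = 0.126), H3c1 (-0.60, adjusted p = 0.245) and H1f10 (-0.57, adjusted p = 0.081), the last of which passed without untreated week 14 replicate 8 or untreated week 12 replicate 1. The arrays of untreated week 14 also had the widest spread of signals, with a median interquartile range of 3.57, against 3.26 in untreated mice of week 12 and 3.30 in pristane-treated mice of week 14. With this range in the model, 8 histone genes rose and 1 fell at week 14, and H2bc21, H1f7 and H1f8 lost their calls. The share of all genes passing went from 22.4% to 15.6%, and the median of the 24 histone genes from 0.41 to 0.19.

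Set against untreated mice of week 12, pristane-treated mice of week 14 differed in 6 histone genes, 4 higher and 2 lower, against 6.53% of all genes higher and 3.87% lower. H4c9 (1.90-fold, 1.47 to 2.45, limma adjusted p = 0.000169), H4c8 (1.60-fold, adjusted p = 0.031), H2bc22 (1.47-fold, adjusted p = 0.0358) and H2bc4 (1.46-fold, adjusted p = 0.0156) rose, and H2bc21 fell by 0.75 on the log2 scale (adjusted p = 0.0311). H3f3a fell by 0.64 (adjusted p = 0.0125), which it did not at its own week. H1f2, H2bc18, H3c1, H3f3b, H1f7 and H1f8 no longer passed, with H3c1 at 0.57 (adjusted p = 0.161) and H3f3b at -0.34 (adjusted p = 0.137). Against pristane-treated mice of week 12, a comparison chosen after the values were seen, H4c9 rose by 0.68 (adjusted p = 0.0215) and H3f3a fell by 0.63 (adjusted p = 0.0332), against 2.2% of all genes higher and 1.32% lower. H4c9 was thus higher in pristane-treated mice of week 14 than in each of the 4 groups set against them, with no covariate in the model.

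**Figure D3:**
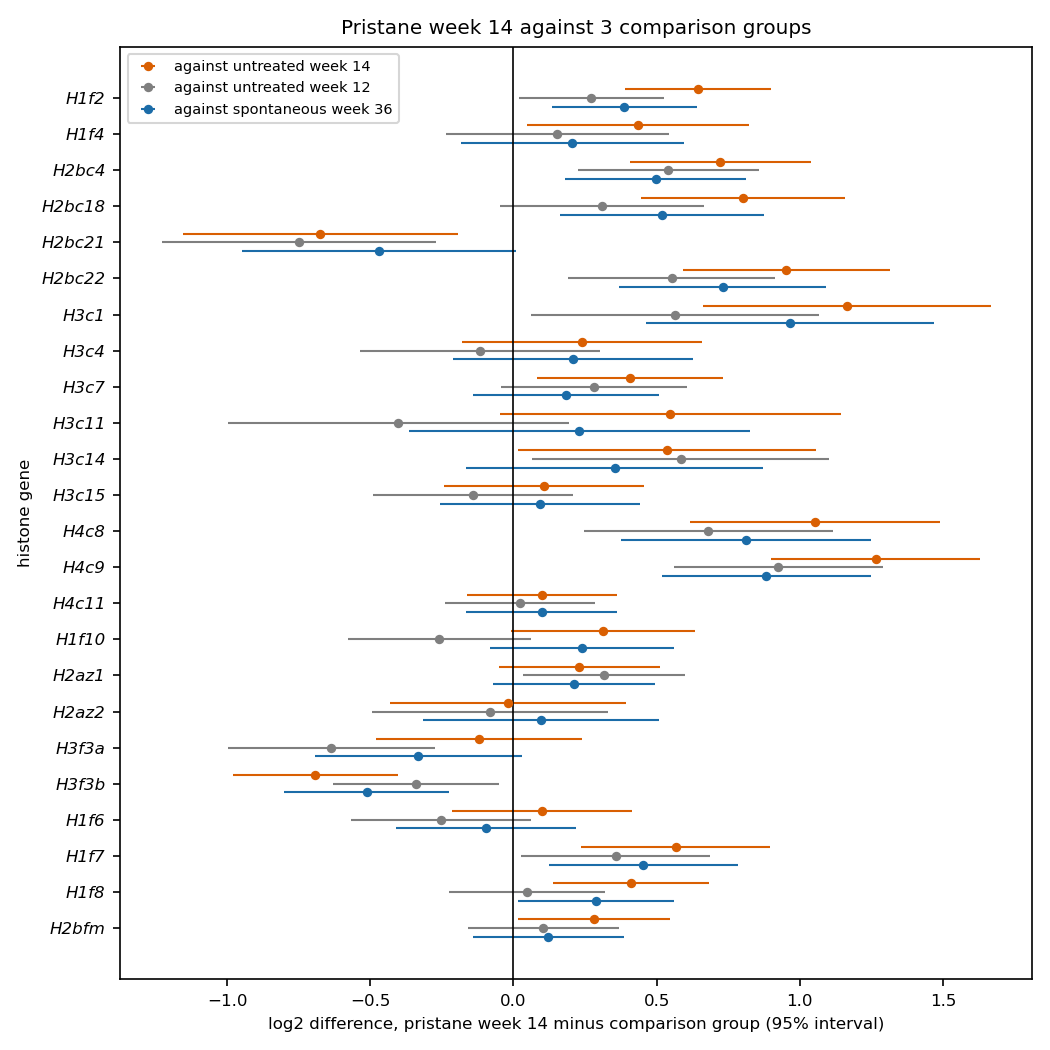
Log2 difference (x axis, with 95% interval) of pristane week 14 from untreated week 14, untreated week 12 and spontaneous week 36 for each histone gene (y axis). The 3 comparisons share the same 8 pristane arrays. H4c9 lies at 1.27, 0.93 and 0.88, and H3c11 changes side, from 0.55 to -0.40, between the untreated groups.

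Mice with spontaneous disease were set against untreated mice in the same way. Against untreated mice of week 14 no histone gene passed, and 0% of all 17097 genes did. At an unadjusted p under 0.05 limma gave 2 histone genes, against 3.47% of all genes. Of the histone genes 21 of 24 lay above 0, against 54.9% of all genes, with a median of 0.19. Against the untreated mice of all 5 weeks together none passed either, against 1.41% of all genes, with 5 at an unadjusted p under 0.05 (16.5% of all genes) and a median of -0.05. The side on which the histone genes lay therefore depended on the untreated group that was used. The second H3c14 probe set, of the _s_at kind, was lower by 0.80 in spontaneous disease than in the untreated mice of all weeks, and passed.

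Pristane-treated mice of week 14 and mice with spontaneous disease were also compared directly. Of the histone genes 7 were higher after pristane and 1 lower, or 33.3%, against 10% of all genes. The 7 were all replication-dependent: H3c1 (1.95-fold, 1.38 to 2.76, limma adjusted p = 0.00688), H4c9 (1.84-fold, 1.43 to 2.38, adjusted p = 0.000526), H4c8 (1.76-fold), H2bc22 (1.66-fold), H2bc18 (1.43-fold), H2bc4 (1.41-fold) and H1f2 (1.31-fold). H3f3b fell by 0.51 on the log2 scale (adjusted p = 0.0137). For H4c9, 7 of 8 pristane arrays lay above every array of spontaneous disease, whose signals were 8.10, 8.40 and 8.83. The count of 8 fell to 4 without pristane replicate 4 and to 5 without pristane replicate 1, pristane replicate 6 or spontaneous replicate 6. H2bc22, H3c1, H4c8 and H4c9 passed in each of these 4 fits. Over the 16 fits that left out 1 array, H2bc18 lost its call in 12, H1f2 in 8, H2bc4 in 5 and H3f3b in 2. None of these differences exceeded 2-fold.

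Genes for the making, processing and decay of replication-dependent histone mRNA form the list called histone mRNA supply here. Of its 19 measured genes 0 rose and 5 fell at week 14, against 12.7% of all genes risen and 9.72% fallen. Their median was -0.04, against 0.12 for all genes. In all, 5 of 19 passed, against 22.4% of all genes, so the count is no result about the list. Slbp, which encodes the protein that binds the stem-loop of histone mRNAs and serves their processing and translation, had a log2 signal of 7.18 ± 0.72 after pristane and 8.32 ± 0.21 in untreated mice (SD, n = 8 each). Slbp fell by 1.14 on the log2 scale (limma adjusted p = 1.56e-06). Upf1, an RNA helicase of mRNA decay, fell by 0.65, Ncbp1, a subunit of the nuclear cap-binding complex, by 0.77, and Eri1, an exonuclease that trims the histone stem-loop, by 0.52. The fifth was Lsm1, by 0.49. The list holds genes of mRNA decay as well as of making and processing, so these falls give no direction of supply.

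Histone chaperones carry histones to and from DNA, and 15 of the 22 listed genes were measured. Of the 15, 0 rose and 4 fell, against the same shares of all genes. In all, 4 of 15 passed, against 22.4% of all genes, so this count too is no result about the list. Anp32e, which removes H2A.Z from nucleosomes, fell by 1.06 (limma adjusted p = 0.000531), Hat1, which acetylates newly made H4, by 0.84, Nap1l1, a chaperone of H2A and H2B, by 0.56 and Nap1l4 by 0.44 on the log2 scale. Their median was -0.29.

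Genes of S phase, the phase in which DNA is copied, had 1 risen and 4 fallen of 29 measured, with a median of -0.06. In all, 5 of 29 passed, against 22.4% of all genes, so the count is no result about the list. Pcna, the sliding clamp of DNA polymerase, fell by 0.89 (limma adjusted p = 3.31e-05), the flap endonuclease gene Fen1 by 1.15, the DNA polymerase alpha gene Pola1 by 0.81 and the helicase subunit gene Mcm4 by 0.62, while the replication factor gene Mcm10 rose by 0.60 (adjusted p = 0.0284). Mitosis genes had 4 risen and 0 fallen of 28, with a median of 0.30. That count too is near the background, since 12.7% of all genes rose. They were the proliferation marker Mki67 (1.51, limma adjusted p = 0.0017), the checkpoint kinase gene Bub1b (0.57), the phosphatase gene Cdc25c (0.44) and the mitotic kinase gene Cdk1 (0.43).

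Further histone genes whose symbols fall outside the rule were listed beside them. Of 4 measured, 2 rose and 1 fell at week 14, against 12.7% of all genes risen and 9.72% fallen. H2ax, whose product is phosphorylated at DNA breaks, was 1.79-fold higher (limma adjusted p = 1.53e-05) and H2aj 1.55-fold higher (adjusted p = 0.0195). Macroh2a2, a gene of the macroH2A variants, fell by 0.58 on the log2 scale (adjusted p = 0.0204).

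**Figure D4:**
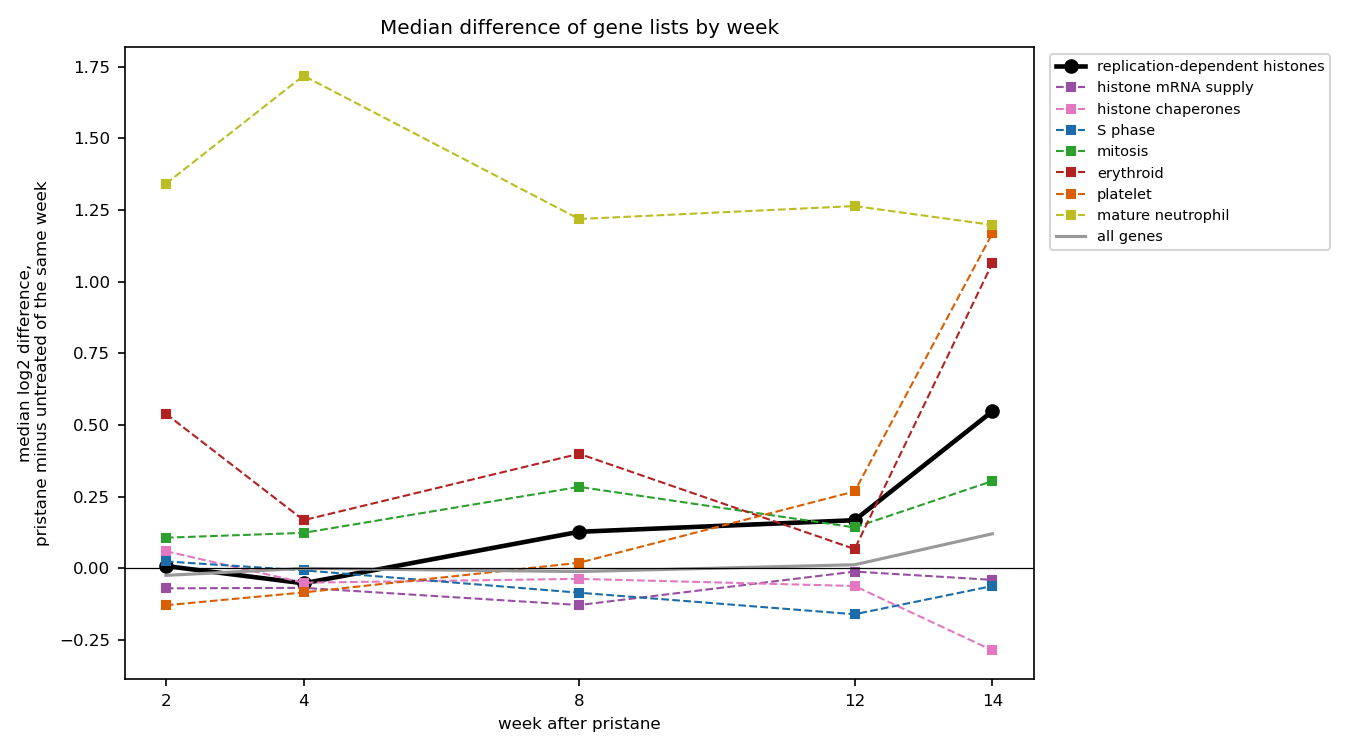
Median log2 difference between pristane-treated and untreated mice of the same week (y axis) by week (x axis) for the 15 replication-dependent histone genes, for 7 gene lists and for all genes. Histone, platelet and erythroid medians are highest at week 14 (0.55, 1.17 and 1.06), S phase and supply medians lie between -0.16 and 0.02, and mature neutrophil genes lie above 1 from week 2 on.

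Whole blood mixes many cell types, and in such bulk samples a change in the number of cells of a type and in the RNA per cell cannot be told apart. Platelet markers moved with the histone genes. All 12 measured members of the platelet list rose at week 14, with a median of 1.17, and none passed at weeks 2, 4, 8 or 12 or in spontaneous disease against untreated week 14. The integrin subunit gene Itga2b was 2.66-fold higher. The platelet score, the mean log2 signal of the list, was 9.74, 10.47 and 10.91 (lowest, median, highest) after pristane at week 14 and 9.10, 9.47 and 9.78 in untreated mice, so that these groups scarcely overlapped. In spontaneous disease it was 9.03, 9.71 and 10.14.

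When the platelet score of each array entered the model, so that its slope was set by differences among mice of the same group, 0 of 24 histone genes passed at week 14 (4 at an unadjusted p under 0.05 in limma). The share of all genes passing went from 22.4% to 4.16%. The median of the replication-dependent genes went from 0.55 to 0.06, below the 0.09 of all genes. H4c9 was then at 0.43 (0.06 to 0.81, adjusted p = 0.175), H4c8 at 0.22 (adjusted p = 0.643), H3c1 at 0.06 (adjusted p = 0.924) and H2bc22 at -0.02 (adjusted p = 0.955). H3f3b, at -0.51 (adjusted p = 0.0962), H2bc21, at -0.52 (adjusted p = 0.344), and H1f7, at 0.53 (adjusted p = 0.144), moved less. H1f8 hardly moved, from 0.41 to 0.40 (adjusted p = 0.184), and still lost its call. Against spontaneous disease and in both differences of differences 0 histone genes passed with this score in the model. The alternative was added after the data were seen. Since the score itself differs between the groups, the platelet part of the histone difference and the remainder cannot be told apart here.

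Several other blood cell lists moved too. Of 15 erythroid genes 7 rose at week 14, with a median of 1.06. The erythroid score ran from 7.21 to 9.40 after pristane and from 6.40 to 8.19 in untreated mice of that week, and these genes too were lower in untreated mice of week 14 than of week 12 (median -0.78, none passing). With the erythroid score in the model, 7 histone genes rose and 2 fell at week 14, and H4c9, H4c8, H2bc22, H3c1, H2bc18, H2bc4, H1f2 and H3f3b kept their calls. The share of all genes passing went to 14.2%, and the median of the 24 histone genes to 0.19. H2bc21, H1f7 and H1f8 lost them, and H3f3a passed as lower. Mature neutrophil genes rose in 7 of 9 members and immature neutrophil genes in 9 of 11, among them Padi4, an enzyme that citrullinates histones (4.71-fold). The mature neutrophil score ran from 8.34 to 9.95 after pristane and from 7.73 to 8.97 in untreated mice of week 14. At week 2 the mature neutrophil genes had risen in 9 of 9, against 2.29% of all genes. With the mature neutrophil score in the model 13 histone genes rose and 2 fell, but the share of all genes passing also grew, to 42.3%. B cell genes fell in 7 of 10, T cell genes in 5 of 11 and NK cell genes in 3 of 8, with 1 NK gene risen. Plasma cell genes had 1 risen and 2 fallen of 7, and monocyte genes 1 of each in 8. Of all genes 12.7% rose and 9.72% fell at week 14, so the monocyte count is no result about that list. The part of red cells, neutrophils and lymphocytes in the histone differences was not tested beyond these values.

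**Figure D5:**
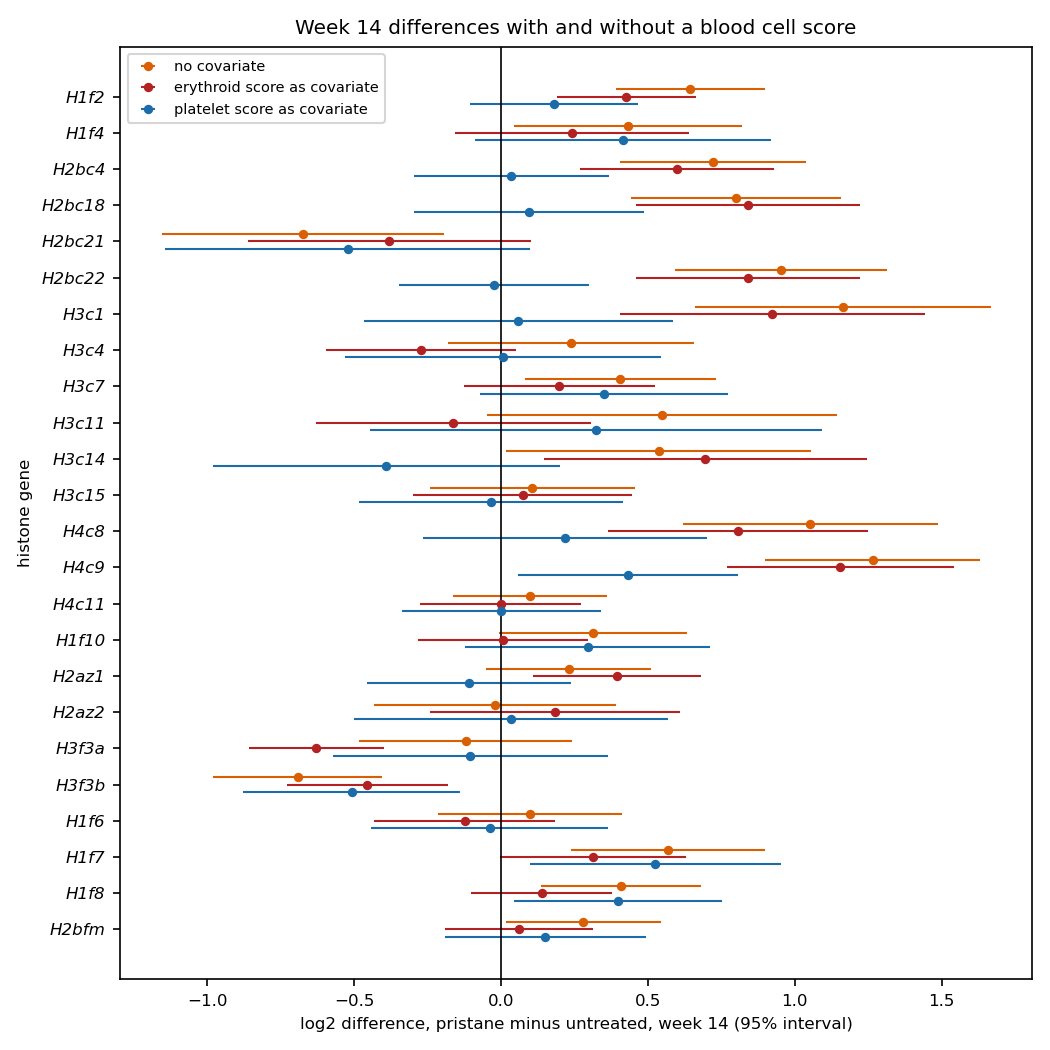
Log2 difference between pristane-treated and untreated mice at week 14 (x axis, with 95% interval) for each histone gene (y axis), without a covariate, with the erythroid score and with the platelet score of each array in the model. H4c9 goes from 1.27 to 1.15 with the erythroid and 0.43 with the platelet score, and H2bc22 from 0.95 to 0.84 and -0.02.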

How the data were processed

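Whole-blood RNA of SNF1 mice was measured in 88 samples, on 1 array each. Per the study's methods, the authors extracted total RNA from snap-frozen blood with Trizol, cleaned it on a column, removed DNA with DNase and, per the labels, amplified and labelled it with a NuGEN kit. The deposited values are log2 signals that the authors summarised per probe set by RMA; the submitters' processing notes also name Partek, with no version. They ran from 0.736 to 13.8, with array medians from 3.78 to 4.01. Groups follow the labels, where the titles of week 36 read untreated and the treatment reads spontaneous disease.

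The file lists 45141 probe sets. Without the 104 controls, 45037 entered the tests, dim ones included. The platform's annotation gave 28898 of them 1 gene, 551 several and 15588 none; only single-gene probe sets were named, and the 24 histone genes matched the mouse RefSeq table (GRCm38.p6) by Entrez ID. The 34 single-gene histone probe sets covered 24 genes, 10 with more than 1. All groups entered 1 limma fit (limma 3.58.1, R 4.3.3) with a mean per group, and 12 comparisons were taken from it with Benjamini-Hochberg adjustment over all probe sets of each comparison. The score of a gene list on an array averages the log2 signals of its measured genes. The procedure was tested on simulated data. The named genes are the histone members passing at week 14, up to 5 of each direction in the other comparisons, the dimmest members and the somatic variants, with the other members given where a result needs them, and of each pathway list the members that moved most. The members, lists and tests were chosen with earlier results of these data known. No depth applies to arrays, and their number limits the precision. Each mouse is a separate sample of its group. The labels do not say whether any mouse was sampled at more than 1 week, and the fit treated all arrays as independent. The alternatives tried are named in the closing section.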

Additional observations from a re-analysis of the deposited data

Results flagged for a closer look

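Among the 121 combinations of 11 histone genes and 11 groups, 9 arrays stood far from the other 7 of their group by Dixon's criterion, and chance alone gives about 1 in 20. Low arrays were pristane week 8 replicate 7 for H1f2 (10.79), pristane week 12 replicate 1 for H2bc4 (9.44), untreated week 14 replicate 8 (4.07) and untreated week 4 replicate 8 (2.77) for H2bc21, untreated week 8 replicate 5 for H2bc22 (10.04), and pristane week 14 replicate 2 (8.41) and untreated week 2 replicate 8 (7.55) for H4c9. High arrays were pristane week 8 replicate 8 (6.41) and untreated week 14 replicate 8 (5.50), both for H1f7.

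The pristane difference itself differed between weeks in the tests of the difference of differences. Between weeks 12 and 14 this held for H4c9 (1.02). Between weeks 2 and 14 it held for H3c1 (1.78, from its _s_at probe set), H4c9 (1.39), H4c8 (1.29), H2bc22 (1.07), H2bc18 (0.80), H1f2 (0.76) and H3f3b (-0.71), all on the log2 scale.

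The probe sets shared by H2ac18 and H2ac19, which stand for no single gene and are not members, rose at week 14 by 0.68 and 0.78 on the log2 scale.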

How the results depend on the processing

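At week 14 the count of 11 histone genes became 3 with a 2-fold threshold, 6 with untreated mice of week 12 as control and 0 with the platelet score as covariate. With the platelet score it was also 0 at week 12 (from 1), against spontaneous disease (from 8), between weeks 12 and 14 (from 1) and between weeks 2 and 14 (from 7), and H2bc22 turned to -0.022 at week 14, H2bc4 to -0.016 and H2bc18 to -0.0063 against spontaneous disease. The 2-fold threshold left 0 at week 12, 0 against spontaneous disease and 4 between weeks 2 and 14. With array interquartile range as covariate, week 12 had 2, but the share of all genes passing there was not counted, so this is no result about histone genes. Pristane week 14 against spontaneous disease then had 5, against 10.2% of all genes. Quantile normalization left 0 at week 12. Array weights gave 3 (all lower) for spontaneous disease against all untreated mice, where 7.94% of all genes passed. They gave 10 (1 higher, 9 lower) for untreated week 14 against week 12, where 15.4% of all genes passed. Between weeks 12 and 14 they gave 2, against 3.7% of all genes. Counting every histone probe set gave 1 for spontaneous disease against all untreated mice. With untreated mice of all weeks as control, chosen after the data were seen, 8 genes passed at week 14 (6 risen, 2 fallen). Of all genes 12.2% rose and 7.49% fell in that comparison. Only 5 of the 11 calls were kept (H2bc4, H2bc22, H4c8, H4c9 and H3f3b). H1f2, H2bc18, H2bc21, H3c1 (0.52, adjusted p = 0.0507) and H1f7 lost theirs, H1f8 turned to -0.033, and H3c14, H2az1 and H3f3a passed instead. Leaving out 1 array gave 9 to 13 at week 14, 4 to 9 against spontaneous disease, 0 to 6 between weeks 12 and 14, 5 to 8 between weeks 2 and 14, and 0 to 1 at week 12 and for untreated week 14 against week 12; the other counts stayed at 0. The cause of these shifts was not tested.

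With the replicate number as a block the week 14 count was 12, 10 risen and 2 fallen, and all 11 calls were kept. The share of all genes passing in that fit was not counted. Most same-numbered arrays of the 2 treatments did not deviate together (r from -0.242 to 0.554, with 1 to 3 of 8 pairs over 0.1 in a week). No pairing by number was thus seen within a week, which does not show that there was none. Equal numbers were not compared across weeks. At most 3 of 8 arrays a week correlated best with their own number. The dim probe sets left out, brightest-quarter centring and the mature neutrophil score also kept all 11 calls at week 14. Signal over background limits H1f4, H3c15, H4c11 and H2bfm.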

Other observations

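Among the 8 pristane-treated mice of week 14, replicate 1 was the highest array for 8 of the 15 replication-dependent histone genes and replicate 2 the lowest for 11, with mean log2 signals over the 15 genes of 7.18 and 6.01. Their platelet scores, 10.91 and 9.74, were the highest and the lowest of that group. In spontaneous disease, replicate 6 was the lowest array for 9 of the 15 genes (mean 5.81). Its platelet score, 9.03, was the lowest of its group, and its interquartile range of signals, 3.695, the widest. Pristane week 12 replicate 1, lowest for 7 genes, also had the widest range of its group (3.464). Pristane week 14 replicate 2 (3.416) did not. Neither did untreated week 2 replicate 8 (3.203) or untreated week 8 replicate 5 (3.224), each lowest for 7 genes. Whether these ranks go with the platelet score or with the array range was not tested.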
